A study of Mus musculus with 8 samples.

Results

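The genes described here are 40 genes of glucose breakdown and of the response to low oxygen, measured in mouse mammary tumours with and without intact Stat3. Members were chosen by name: 23 glycolytic genes (glucose and lactate carriers, enzymes of glycolysis and regulators of its flux) and 17 hypoxia-inducible genes with the regulators of that response. Of the 40 genes, 39 had a probe named for them on the array, by 67 of 41174 probes. Gapdh was named by no probe and was not analysed here. All 39 gave a tumour signal well above background on each of the 8 arrays, so the filter on dim probes removed no member, and they are 39 of the 21539 genes tested.

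The tumours came from virgin females carrying MMTV-NIC, a transgene in which a mammary promoter drives activated Neu (ErbB2, a growth factor receptor) together with Cre recombinase, so that Cre acts in the cells that express the oncogene and not in other cells of the tumour. The first group, Stat3flx/flx/MMTV-NIC, held 5 single tumours with both Stat3 alleles floxed. The second, Stat3wt/wt/MMTV-NIC, held 3 pools, each of 5 tumours, from mice with unaltered Stat3 and the same transgene. Tumours were collected 6 weeks after they were first palpated. The sources used here give neither age nor background strain. Each tumour RNA (dye Cy5) was hybridised beside a universal mouse reference RNA (dye Cy3, the same product on all 8 arrays), and each value below is a log2 ratio of tumour over reference unless a single channel is named. Because a ratio belongs to its probe, values are compared between arrays and not between genes. The comparison asks whether the genes differ when Stat3, a transcription factor activated downstream of cytokine and growth factor receptors, can be deleted. In whole tumours, fewer cells of a type and less RNA per cell cannot be told apart, and a pool averages over animals while a single tumour does not, so group and pooling cannot be told apart either.

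Glycolysis converts glucose to pyruvate in the cytosol, and lactate dehydrogenase can turn pyruvate into lactate, which a carrier exports. The hypoxia-inducible factors (HIFs) are pairs of an oxygen-labile alpha subunit (Hif1a or Epas1) and a stable partner. When oxygen is present, prolyl hydroxylases mark the alpha subunit for destruction. When oxygen is scarce the subunit persists and turns on genes with a hypoxia response element, whose core is ACGTG or GCGTG, among them most glycolytic enzymes. Solid tumours, breast tumours included, often carry high levels of both gene groups.

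The targeted gene checked the labels: Stat3 was -1.30 ± 0.14 (SD, n = 5) in the floxed tumours and 0.75 ± 0.58 (SD, n = 3) in the pools, without overlap (limma adjusted p = 0.109). All 12 markers of mammary luminal epithelium were measured above background. Median tumour-channel signals ranged from 642 to 891 units over the arrays, on backgrounds of 47 to 58, and precision is limited by the number of arrays. By the slide barcodes in the file headers, they lay on 3 slides: floxed tumour 1 with pool 2 on slide 1, floxed tumours 2 and 3 with pool 3 on slide 2, and floxed tumours 4 and 5 with pool 1 on slide 3.

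No member passed the test between genotypes. Of the 39 members, 0 had a limma adjusted p under 0.05 (0.00464% of all genes, a single gene, did), and 2 had an unadjusted p under 0.05, against 4.97% of all genes. Both of these, Gpi1 and Ero1l, had the higher mean in the floxed tumours, a direction in which 1.61% of all genes had such a p. In the opposite direction, where 3.36% of all genes had such a p, there was no member. The 5 floxed tumours lay above all 3 pools for Gpi1 alone (0.994% of all genes did so) and below all 3 pools for Hif1a alone (2.14% of all genes). Over both directions together, the members' share was near that of all genes. The glycolytic members had a median difference, floxed minus wild-type, of 0.08 on the log2 scale, with 14 above 0 and 8 below, and the hypoxia-inducible members of 0.04, with 10 above and 7 below. Over all genes the median was -0.01. Both signs turned with the scaling: when arrays were only median-centred, without loess, they were -0.013 and -0.11, and in the tumour channel alone the hypoxia-inducible median was -0.07.

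**Figure D1:**
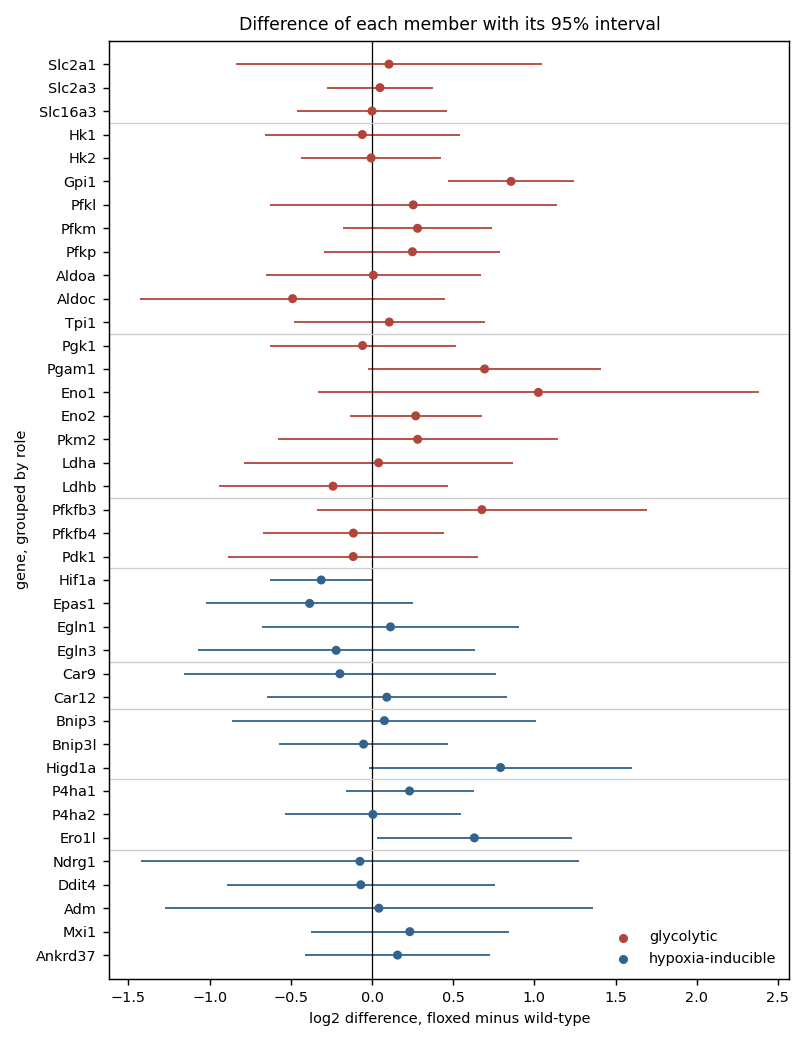
Log2 difference (floxed minus wild-type, x axis) of the 39 measured members, grouped by role on the y axis. Points are limma estimates from 5 floxed tumours and 3 wild-type pools, bars are 95% intervals before any adjustment for the number of genes, and the intervals of Gpi1 and Ero1l lie above 0.

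Among the carriers, the glucose transporter Slc2a1, the main uptake route of many tumours, stood at -1.45, -2.10, -0.85, -1.53 and -0.20 in floxed tumours 1 to 5 and at -1.76, -1.53 and -0.71 in pools 1 to 3. The groups overlapped over their whole range, with floxed tumour 5 highest and floxed tumour 2 lowest, and the difference was 0.10 (SE 0.42). Slc2a3, a glucose transporter of high affinity, varied little, at -2.47, -2.55, -2.74, -2.85 and -2.66 in the floxed tumours and -2.78, -2.82 and -2.51 in the pools. Its difference of 0.05 (SE 0.15) was within the spread of either group. Slc16a3, a lactate exporter of the plasma membrane, had the same mean of -2.23 in both groups (95% interval of the difference -0.46 to 0.46).

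Of the 9 enzymes of upper glycolysis, 6 had a difference above 0 and 3 below, with a median of 0.11. Gpi1 (glucose-6-phosphate isomerase, which turns glucose 6-phosphate into fructose 6-phosphate) had the smallest p of all members. Its ratio was 1.52, 1.45, 1.33, 1.68 and 1.79 in floxed tumours 1 to 5 and 0.38, 0.86 and 0.86 in pools 1 to 3. Every floxed tumour thus lay above every pool, and the difference of 0.86 (SE 0.17, 1.81-fold) exceeded the SD of the floxed tumours (0.18) and of the pools (0.27). In limma's fit its unadjusted p was 0.000752 and its adjusted p = 0.754, and the exact permutation test over all 56 splits, two-sided, gave p = 0.0179, the smallest it can give and one that the lack of overlap already fixes. Within slides 1, 2 and 3 the difference was 0.67, 0.53 and 1.35.

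The channel that carried the Gpi1 difference depended on the probe. Gpi1 has a pair of probes on chromosome 7, minus strand, in mouse build mm7, and the first 30 of the 60 bases of each are shown because they read the same gene at very different brightness. The sources used here do not say whether they lie in coding or untranslated sequence.

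Gpi1 A_51_P426886: atggaagggctttgacgtgtcatgttgttc

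Gpi1 A_52_P347412: tctcagactgcagttctccaacctggtctc

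The first, at chr7:31089664-31089723, gave tumour signals of 130000 to 175000 units and is the probe that represents the gene. There the tumour channel alone differed by 0.14 (SE 0.11, limma unadjusted p = 0.233), again with every floxed tumour above every pool (17.31, 17.32, 17.33, 17.31 and 17.37 against 17.06, 17.20 and 17.28). The reference channel, which holds the same RNA on each array, differed by -0.59. It read 15.22, 15.09, 15.26, 15.08 and 15.14 beside the floxed tumours and 15.90, 15.75 and 15.59 beside the pools. The second probe, at chr7:31097331-31097390, gave 438 to 2450 units. Its ratio was 0.79, 1.05, 0.97, 0.82 and 2.02 in the floxed tumours and -0.57, 0.27 and -0.15 in the pools, also without overlap, a difference of 1.28 (SE 0.31, limma unadjusted p = 0.00236). Here the difference lay in the tumour channel (1.19) and not in the reference channel (-0.06). Both probes therefore put Gpi1 higher in the floxed tumours, but for the bright one most of the ratio difference lay in the reference channel.

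Hexokinase 1 (Hk1), which phosphorylates glucose as it enters the cell, showed the same dependence on the probe. Its brightest probe (112000 to 162000 units) read 2.32, 2.04, 2.07, 2.88 and 1.93 in the floxed tumours and 1.83, 2.38 and 2.71 in the pools, a difference of -0.06 (SE 0.27). The 4 dimmer probes above background had differences of 0.71, 1.01, 0.82 and 1.10, and their tumour channels alone differed by 0.71, 0.99, 0.67 and 1.03. The 5 probes, all on chromosome 10, minus strand, in mm7, are shown by their first 30 bases, the bright one first, since they were made for 1 gene and disagreed in sign.

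Hk1 A_52_P102773: ggaaaacatcttgtctccatcttgctagga

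Hk1 A_51_P249024: gcatggccgccgtggtgcaaaagatccgag

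Hk1 A_52_P479599: gacatcagaacagacttcgacaagtggtgg

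Hk1 A_52_P674530: atcatgcaccaaacagtgaaggaactgtca

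Hk1 A_52_P9337: gaaattctgatagatatcctgacacgcttc

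At A_52_P9337, chr10:61834191-61834250, the dimmest of these (846 to 6580 units), the ratio was 1.67, 1.54, 1.79, 2.27 and 2.01 in the floxed tumours and 0.84, 1.87 and -0.45 in the pools. Pools 1 and 3 lay below every floxed tumour and pool 2 lay among them, so the groups overlapped (limma unadjusted p = 0.0325, and 0.0540 to 0.0927 for the other 3 dim probes). The probes share one gene and the same samples and are not independent measurements. On no array did a sixth probe rise well above background.

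**Figure D2:**
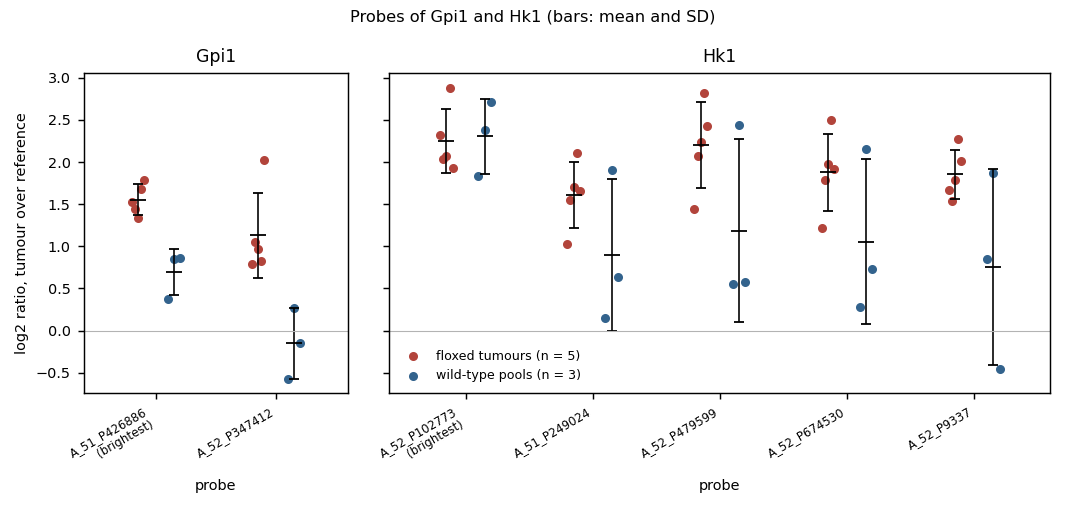
Log2 ratio of tumour over reference (y axis) for the probes of Gpi1 and Hk1 that were well above background (x axis, brightest first). Points are single arrays, bars the mean and SD, and the floxed tumours lie above the pools at both Gpi1 probes, while pool 2 lies among the floxed tumours at the 4 dim Hk1 probes.

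The remaining enzymes of upper glycolysis had overlapping groups. Hk2, the inducible hexokinase, differed by -0.01 (SE 0.19), and the phosphofructokinase subunits Pfkl, Pfkm and Pfkp, which catalyse the committed step, by 0.25 (SE 0.39), 0.28 (SE 0.20) and 0.25 (SE 0.24). Pfkp stood at -0.04, 0.52, 0.15, 0.42 and 0.85 in the floxed tumours and -0.29, 0.24 and 0.45 in the pools, with pool 1 lowest and floxed tumour 5 highest. Its other probes differed by 0.33 and -0.12. The aldolases, which split fructose bisphosphate, differed by 0.01 (Aldoa, SE 0.29) and -0.49 (Aldoc, SE 0.41). Aldoc had the largest spread of this role, at 4.27, 4.99, 4.93, 4.86 and 3.70 in the floxed tumours and 4.45, 4.66 and 6.01 in the pools. Floxed tumour 5 was lowest and pool 3 highest, and the spread came from the reference channel (SD 0.659 over the arrays, against 0.0781 in the tumour channel). Tpi1, triosephosphate isomerase, differed by 0.11 (SE 0.26).

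In lower glycolysis and lactate formation, 5 of 7 measured enzymes had a difference above 0, with a median of 0.27, and none had a limma unadjusted p under 0.05. Pgam1, phosphoglycerate mutase, stood at 0.37, 0.17, 0.26, 0.26 and 0.75 in the floxed tumours and at -1.23, -0.03 and 0.27 in the pools. Pool 1 lay far below the other arrays. The difference of 0.69 (SE 0.32, limma unadjusted p = 0.0566, adjusted p = 0.942) was -0.13 in the tumour channel alone and -0.67 in the reference channel, where pool 1 read 17.72 against 16.02 to 16.64 elsewhere. Eno1, an enolase, had the largest spread of all members, at 1.16, 0.64, 3.04, 1.80 and 2.90 in the floxed tumours and 0.40, 1.84 and 0.41 in the pools. Its difference was 1.02 (SE 0.60), with 0.15 in the tumour channel and -0.72 in the reference channel, and its probe is assigned to more than one transcript of the enolase family in the file, so its signal may be shared with a near-identical copy.

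Pgk1, which makes ATP from bisphosphoglycerate, stood at 0.07, 0.24, 0.60, 0.36 and 0.81 in the floxed tumours and -0.04, 0.48 and 0.98 in the pools, a difference of -0.06 (SE 0.25), and 0.01 at its other probe. Both groups covered nearly the same range. Eno2, the enolase best known from neurons, differed by 0.27 (SE 0.18) and pyruvate kinase, listed as Pkm2, by 0.28 (SE 0.38). The lactate dehydrogenase subunits Ldha and Ldhb differed by 0.04 (SE 0.36) and -0.24 (SE 0.31). Ldha was highest in floxed tumour 1 (2.48) and lowest in floxed tumour 2 (0.56), while Ldhb was highest in floxed tumour 2 (3.98), so the floxed tumours differed more among themselves than from the pools.

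Of the 3 regulators of flux, 1 had a difference above 0 and 2 below. Pfkfb3, which makes the fructose 2,6-bisphosphate that activates phosphofructokinase, stood at 0.53, 0.58, 1.28, 1.33 and 2.05 in the floxed tumours and -0.44, 0.52 and 1.35 in the pools. The floxed tumours lay higher on average by 0.68 (SE 0.45, limma unadjusted p = 0.166), with pool 3 among the highest. Without pool 1 the difference was 0.22, without pool 3 it was 1.11, and within slides 1, 2 and 3 it was 0.0086, -0.42 and 2.13. Its other probes differed by 0.63 (limma unadjusted p = 0.0188) and 0.72 (limma unadjusted p = 0.104), and in all 3 the difference lay in the tumour channel (0.66, 0.56 and 0.78). At the middle one, A_52_P138126, every floxed tumour (1.04, 0.94, 1.09, 0.84 and 1.75) lay above every pool (0.30, 0.47 and 0.73). Pfkfb4, a second enzyme of that kind, differed by -0.11 (SE 0.25). Pdk1, a kinase that shuts off pyruvate dehydrogenase, stood at -0.73, -1.28, 0.03, -0.60 and 0.11 in the floxed tumours and -0.71, -0.57 and 0.14 in the pools, a difference of -0.12 (SE 0.34), and of 0.28 (SE 0.20) at its other probe.

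Among the hypoxia regulators, Hif1a, the oxygen-labile subunit of HIF-1, was the one member whose floxed tumours all lay below the pools. It read -0.89, -0.66, -0.96, -0.73 and -0.59 in floxed tumours 1 to 5 and -0.48, -0.35 and -0.53 in pools 1 to 3. The nearest values were those of floxed tumour 5 and pool 3. The difference was -0.31 (SE 0.14, 95% interval -0.63 to 0.0010; limma unadjusted p = 0.0506, adjusted p = 0.942), and -0.54, -0.28 and -0.18 within slides 1, 2 and 3. It lay mostly in the tumour channel (-0.27) and little in the reference channel (0.08). HIF-1 is controlled mainly at the level of the protein, which was not measured.

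Epas1, which encodes the alpha subunit of HIF-2, stood at 1.07, 1.34, 1.72, 1.52 and 1.88 in the floxed tumours and 1.58, 1.50 and 2.58 in the pools, a difference of -0.38 (SE 0.28) with pool 3 far above the rest. Without pool 3 it was -0.038, and with the mean of both probes -0.059. Its dimmer probe, at 272 to 585 units, gave the opposite sign (0.27, SE 0.17) and had pool 3 lowest. The direction for Epas1 therefore depended on the probe. The prolyl hydroxylases Egln1 and Egln3, both themselves HIF targets, differed by 0.11 (SE 0.35) and -0.22 (SE 0.38). Egln3 stood at 2.34, 1.91, 2.84, 2.96 and 3.27 in the floxed tumours and 2.14, 2.96 and 3.55 in the pools, so each group covered a wide range.

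The carbonic anhydrases that acidify the space around hypoxic cells had overlapping groups. Car9, a classical marker of tumour hypoxia, read 0.23, -0.22, 1.33, 0.48 and 1.59 in the floxed tumours and 0.51, 0.69 and 1.45 in the pools. The highest values were those of floxed tumours 5 and 3 and pool 3, and the difference was -0.20 (SE 0.42). Without floxed tumour 2 it was 0.03, and without pool 3 it was 0.09. Car12 differed by 0.09 (SE 0.33).

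Of the targets that act at mitochondria, Higd1a, a small protein of the inner membrane that tunes respiration, had the widest separation. It read -1.0045, -0.81, -0.20, -0.24 and 0.38 in the floxed tumours and -1.85, -0.97 and -0.68 in the pools. Floxed tumours 3, 4 and 5 lay above every pool and floxed tumours 1 and 2 among them. The difference was 0.79 (SE 0.36, limma unadjusted p = 0.0547, adjusted p = 0.942), and 0.78 at its other probe. In the tumour channel alone it was 0.42 and 0.69. Pool 1 carried much of it: without pool 1 the difference was 0.45, and within slides 1, 2 and 3 it was -0.04, 0.18 and 1.92. Bnip3 and Bnip3l, receptors for the removal of mitochondria by autophagy, differed by 0.08 (SE 0.41) and -0.05 (SE 0.23).

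Among the enzymes of the secretory pathway, the 3 differences were all above 0. Ero1l (now Ero1a, an oxidase that drives disulfide formation in the endoplasmic reticulum) stood at 0.87, 0.12, -0.11, 0.40 and 0.72 in the floxed tumours and at -0.61, 0.18 and -0.26 in the pools. Floxed tumours 1, 4 and 5 lay above every pool, and pool 2 lay above floxed tumours 2 and 3. The difference was 0.63 (SE 0.26, 1.55-fold; limma unadjusted p = 0.0414, adjusted p = 0.942), of which 0.44 lay in the tumour channel, and 0.69, 0.27 and 1.16 within slides 1, 2 and 3. Its other probe gave 0.91 (SE 0.32, limma unadjusted p = 0.0185) with 0.93 in the tumour channel, and read -0.20, -0.90, -1.27, -0.44 and 0.06 against -1.93, -1.09 and -1.36, again with floxed tumour 3 among the pools. Without floxed tumour 1, 4 or 5, or without pool 1 or 3, the unadjusted p of Ero1l was no longer under 0.05. The collagen prolyl hydroxylase subunits P4ha1 and P4ha2 differed by 0.23 (SE 0.17) and 0.01 (SE 0.24).

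Of the other hypoxia targets, Ndrg1, Adm and Ddit4 varied far more within each group than between the group means. Ndrg1, a stress-induced cytoplasmic protein, stood at -3.28, -3.07, -1.46, -2.70 and -0.96 in the floxed tumours and -3.05, -2.31 and -1.31 in the pools. Its floxed tumours had an SD of 1.03 and its pools of 0.87, while its group means differed by -0.07 (SE 0.60). Adm, the vasodilator peptide adrenomedullin, differed by 0.04 (SE 0.58), with an SD of 1.02 in the floxed tumours and 0.80 in the pools. Ddit4, an inhibitor of mTORC1 signalling, differed by -0.07 (SE 0.36), with an SD of 0.60 in the floxed tumours and 0.53 in the pools, and Ankrd37 by 0.16 (SE 0.25). Mxi1, a repressor that opposes Myc, stood at 0.04, -0.54, 0.02, 0.18 and 0.82 in the floxed tumours and -0.34, 0.04 and -0.08 in the pools, a difference of 0.23 (SE 0.27), and -0.05 at a dim probe annotated on the opposite strand.

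**Figure D3:**
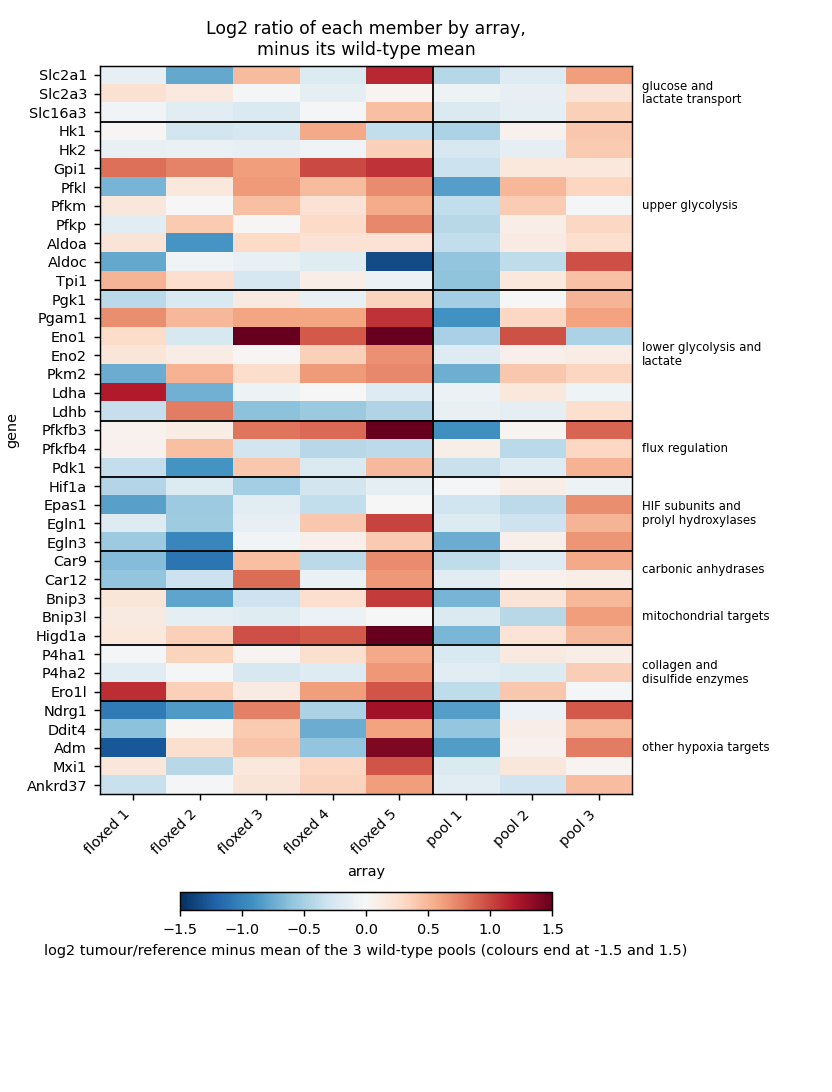
Log2 ratio of each of the 39 measured members (rows, by role) on each array (columns), minus the mean of the gene's 3 wild-type pools, with colours ending at -1.5 and 1.5. Floxed tumour 5 is the reddest column, pool 1 among the bluest, and Gpi1 is red in all 5 floxed tumours.

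What the members shared was a pattern over the single arrays. The SD of their ratios over the 8 arrays had a median of 0.477, against 0.296 for all genes. In the tumour channel alone the members' median SD was close to that of all genes (0.289 against 0.278). In the reference channel it was the larger (0.181 against 0.0785). Floxed tumour 5 was the highest array for 21 of 39 members (53.8%, against 9.15% of all genes with a value on every array), among them 11 of the 17 hypoxia-inducible genes. Pool 3 was the highest for 7 (17.9%, against 24.3% of all genes). Pool 1 was the lowest array for 15 members (38.5%, against 11.5% of all genes), of which 12 were glycolytic, and floxed tumour 2 for 9 (23.1%, against 14.2%). The median of the hypoxia-inducible members, each taken relative to its wild-type mean, was -0.34, -0.21, 0.12, -0.08 and 0.65 in floxed tumours 1 to 5 and -0.30, 0.07 and 0.49 in pools 1 to 3. In the glycolytic members it was 0.03, 0.06, 0.08, 0.16 and 0.47, and -0.40, 0.07 and 0.32. Both groups thus held tumours or pools with high and with low values, and both kinds of gene were high in floxed tumour 5 and pool 3. In the tumour channel alone the hypoxia-inducible median was again highest in floxed tumour 5 (0.58) and pool 3 (0.26), and lowest in floxed tumour 2 (-0.27). The glycolytic median spanned less there, from -0.14 in pool 1 to 0.20 in floxed tumour 5, and in the reference channel it ran the other way, from 0.16 in pool 1 to -0.16 in pool 3. The hypoxia-inducible median also ran the other way in the reference channel, from 0.10 in pool 1 to -0.21 in floxed tumour 5, with -0.09 in pool 3. Part of both patterns thus lay in the reference channel.

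Markers of other cells moved with some of these arrays. Of 23 skeletal muscle markers, 19 were measured, and their median relative to the wild-type mean was 1.32 in floxed tumour 5, -0.26 to 0.42 in the other floxed tumours and -0.06 to 0.07 in the pools. The fibroblast markers (10 of 10 measured) were high in floxed tumour 2, at 1.88, where those of neutrophils (6 of 10) were at 0.94 and those of macrophages (11 of 11) at 0.59. The adipocyte markers (9 of 10) were high in floxed tumour 1, at 1.78. Pool 3 was the highest array for the endothelial (10 of 10, 0.63) and luminal epithelium markers (0.42), and had neutrophil markers at 0.80. Their part in the members' values was not tested. Without floxed tumour 5 the median difference was 0.08 for the glycolytic members and -0.16 for the hypoxia-inducible members. Without pool 1 it was -0.09 and -0.16, and without pool 3 it was 0.23 and 0.26. Within slides 1, 2 and 3 it was 0.02, -0.28 and 0.62 for the glycolytic and -0.15, -0.44 and 0.65 for the hypoxia-inducible members, so its sign changed between slides.

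**Figure D4:**
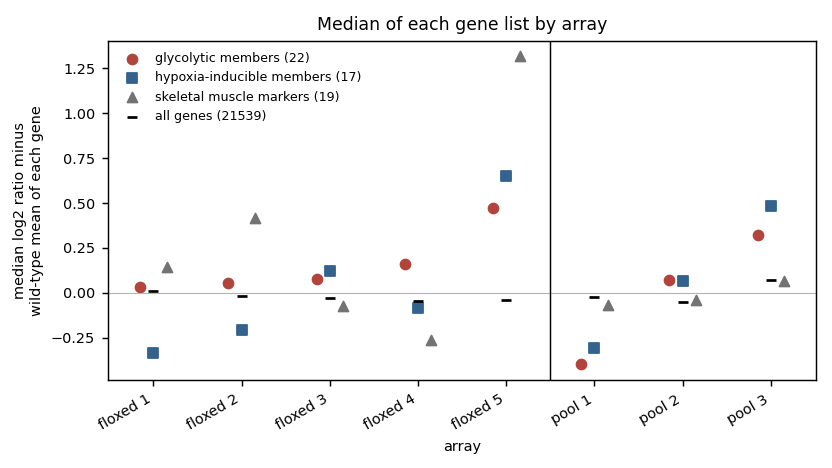
Median over each gene list (y axis) of the log2 ratio minus the gene's wild-type mean, by array (x axis), for glycolytic members, hypoxia-inducible members, skeletal muscle markers and all genes. Floxed tumour 5 has the highest value of each of the first 3 lists, and the median of all genes lies between -0.05 and 0.07.

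The probes that stood for 10 of the glycolytic members were among the brightest in the tumour channel. At those probes the reference channel varied more than the tumour channel. Of the 39 members, 11 had a mean tumour signal of at least 100000 units, 10 of them glycolytic (Hk1, Gpi1, Aldoa, Aldoc, Tpi1, Pgk1, Pgam1, Eno1, Ldha and Ldhb) and the other Egln3. In all 11 the SD of the reference channel over the 8 arrays was above that of the tumour channel, with medians of 0.344 and 0.111. Of the 28 dimmer members this held for 2, with medians of 0.133 and 0.334. It was not particular to the members. It held for 448 of 493 genes at or above that tumour signal (91.4%) and for 5.32% of the 21046 genes below it. Genes were sorted here by tumour signal alone, not by reference signal, and each channel was quantile-normalized by itself. The part of these choices in the pattern was not tested. Of all spots, 1 carried the scanner's saturation flag. In all 11 bright members, and in 15 of the 28 dimmer ones, the tumour signal was flagged on every array as scaled up from the scan at low gain, the scanner's extended range. In the bright members the ratio thus varied mainly through the channel that held the same RNA on each array, and the cause was not tested.

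**Figure D5:**
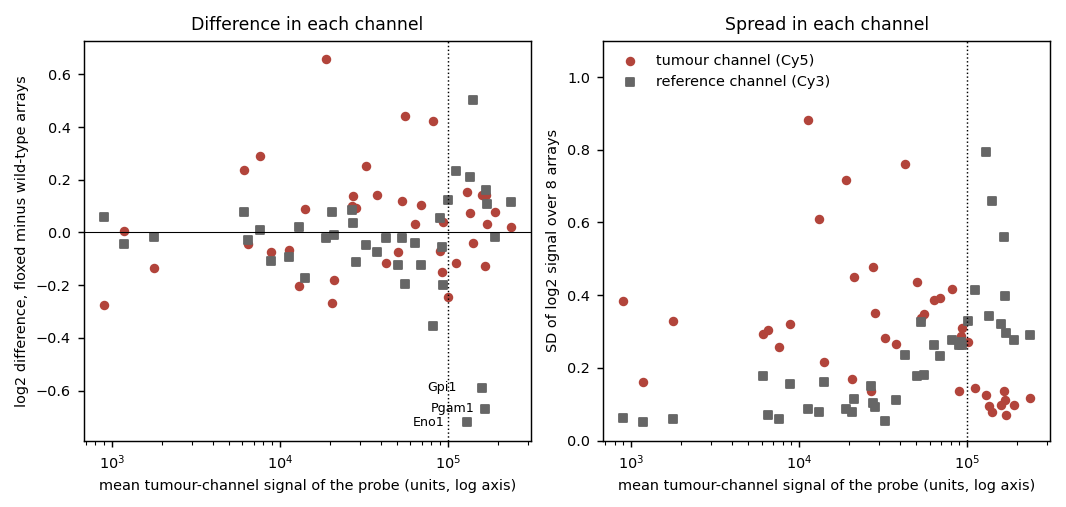
For each of the 39 measured members, the difference between floxed and wild-type arrays (left, log2) and the SD over the 8 arrays (right, log2) in the tumour and in the reference channel, against the mean tumour-channel signal (x axis, log scale). To the right of the dotted line at 100000 units the reference channel has the larger SD in all 11 members, and the reference differences of Gpi1, Pgam1 and Eno1 lie between -0.72 and -0.59.

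When the brightest probe under 100000 units stood for each gene, 31 members could be measured. Of these, Gpi1 (1.28), Ero1l (0.63) and Hif1a (-0.31) had a limma unadjusted p under 0.05, against 4.79% of 21175 genes. None passed after adjustment (limma adjusted p = 0.948 for each). This setting was chosen after the data were seen. Of 23 alternatives (other settings and left-out samples, not the within-slide values), 18 could move the difference of more than 1 member. Of the 31 members with a value in all 18, 12 kept the sign of their difference: Gpi1, Pfkm, Pfkp, Eno2, Pfkfb3, Hif1a, Epas1, Higd1a, P4ha1, Ero1l, Mxi1 and Ankrd37. The share of all genes that kept theirs is not given here. At another kept probe Pfkp, Epas1 and Mxi1 had the opposite sign (-0.12, 0.27 and -0.05). Eno1 and Ldhb had no probe under 100000 units and kept their sign in all other alternatives.

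Genes of the same pathways that are not members were described from lists. Of 26 other genes of glycolysis, pyruvate and lactate handling, 24 were measured, 12 with a difference above 0 and 12 below (median -0.03). None passed limma's adjusted threshold. An unadjusted p under 0.05 was found for 3 with the higher mean in floxed tumours (1.61% of all genes). It was found for 1 with the lower mean (3.36% of all genes). The list was chosen with earlier results known, and these counts were not tested. By rule the leading genes were Pgam2, the muscle form of phosphoglycerate mutase, with 0.51 (SE 0.17, limma unadjusted p = 0.0140), and Fbp1, which reverses the phosphofructokinase step, with -0.80 (SE 0.28, limma unadjusted p = 0.0187). Of 10 other regulators of HIF, all measured, 3 lay above 0 and 7 below (median -0.08), led by Egln2 (0.21, SE 0.15) and Hif1an (-0.32, SE 0.25), the oxygen sensors beside Egln1 and Egln3. Of 25 measured among 26 other HIF targets, 14 lay above 0 and 11 below (median 0.05), led by Gys1 (0.45, SE 0.22), which builds glycogen, and the lipoprotein receptor Vldlr (0.32, SE 0.17). Of 6 measured among 7 pentose phosphate genes 4 lay above 0 and 2 below (median 0.09), led by the transketolase Tkt (-0.55, SE 0.29) and the transaldolase Taldo1 (0.43, SE 0.24). In these 3 lists no gene had a limma unadjusted p under 0.05.

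The promoters of the members were compared by their letters, since HIFs bind a known core. RefSeq promoter windows (build GRCm38.p6) matched 36 of the 40 members, and the 250 bases before the start were searched on both strands for ACGTG and GCGTG, counting a gene once if any of its listed starts had a match. At least 1 core was found in 32 of 36 members (88.9%), against 41.5% of 27025 genes. The members were chosen by name as glycolytic or hypoxia-inducible genes, so this share is a description and no test. A gene with more listed starts also had more chances of a match. ACGTG was found in 11 of 14 hypoxia-inducible members and 10 of 22 glycolytic members, against 18.5% of all genes. The members' windows were also richer in G and C, with a median of 62.8% against 52.4%, and the part of that in the difference was not tested. TTCNNNGAA, the sequence that Stat factors prefer, was found in 2 of 36 members (5.56%, against 8.13% of all genes). The windows of the 4 members with the smallest unadjusted p are shown 5′ to 3′ with the cores in capitals: Gpi1 at chr7:34230337-34230586 (minus strand), Ero1l at chr14:45318573-45318822 (minus), Hif1a at chr12:73907617-73907866 (plus) and Higd1a at chr9:121857797-121858046 (minus).

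Gpi1: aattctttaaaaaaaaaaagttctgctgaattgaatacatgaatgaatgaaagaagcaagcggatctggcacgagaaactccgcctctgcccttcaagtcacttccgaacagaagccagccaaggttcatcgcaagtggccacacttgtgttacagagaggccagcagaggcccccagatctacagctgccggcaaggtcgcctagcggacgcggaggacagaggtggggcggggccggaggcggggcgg

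Ero1l: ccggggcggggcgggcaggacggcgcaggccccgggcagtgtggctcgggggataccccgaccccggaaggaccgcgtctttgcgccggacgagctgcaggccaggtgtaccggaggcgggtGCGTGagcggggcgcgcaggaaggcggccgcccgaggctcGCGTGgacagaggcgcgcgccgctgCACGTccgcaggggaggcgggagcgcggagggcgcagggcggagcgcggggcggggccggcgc

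Hif1a: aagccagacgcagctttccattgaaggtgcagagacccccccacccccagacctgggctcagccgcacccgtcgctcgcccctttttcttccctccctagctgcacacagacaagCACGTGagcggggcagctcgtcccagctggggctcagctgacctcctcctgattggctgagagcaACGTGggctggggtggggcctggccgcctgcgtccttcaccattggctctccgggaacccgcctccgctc

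Higd1a: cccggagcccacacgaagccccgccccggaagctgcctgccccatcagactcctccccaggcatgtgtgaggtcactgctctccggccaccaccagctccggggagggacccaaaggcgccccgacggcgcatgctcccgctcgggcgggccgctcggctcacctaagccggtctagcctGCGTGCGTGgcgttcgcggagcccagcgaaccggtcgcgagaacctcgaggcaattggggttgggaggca

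The Gpi1 window held neither core, the Ero1l window 1 ACGTG and 2 GCGTG, the Hif1a window 3 ACGTG (a pair of them on opposite strands within CACGTG) and the Higd1a window 2 overlapping GCGTG. A match is a description of letters and not of a bound site, and a window without one says nothing of sites elsewhere.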

How the data were processed

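Tumour (Cy5) and reference (Cy3) RNA of 8 two-colour Agilent arrays were compared. The deposited spot intensity values came from Agilent Feature Extraction 9.5.3.1, per the file headers, without normalization, with probe coordinates in mm7. The authors' deposited table holds log2 values that follow tumour over reference on each array (r from 0.989 to 0.994, slope 0.973 to 1.25, column medians 0.0028 to 0.0116); RMA and Agilent's software are named in the submitters' processing notes, but how it was normalized and centred is unknown, so it served as an alternative. With limma 3.58.1 in R 4.3.3, background was corrected by normexp (offset 50) and ratios by loess within arrays, control spots at weight 0 and outlier-flagged spots left out. Spots of a probe were averaged. A probe was kept if well above background in the tumour channel on at least 3 arrays, and the brightest kept probe stood for a gene. Symbols came from accessions for 22951 probes and from current symbols for 6659; 11564 kept the file's name. The groups were compared two-sided with Benjamini-Hochberg adjustment over 21539 genes, threshold 0.05. Single channels were quantile-normalized between arrays. The fit was tested on simulated data. The members, roles and lists were chosen with earlier results of these data known. Values on each array are given for the member of smallest p and of largest SD in each role, Hif1a, Epas1 and members whose kept probes disagree in sign; the pathway lists give the 2 genes of smallest p. Alternatives changed the background, normalization, channel, filter, probe rule, slide term, variance model or samples. The numbers of floxed tumours are mere names, and p-values cover only the spread between the 8 samples.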

Additional observations from a re-analysis of the deposited data

Results flagged for a closer look

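In 5 of 41 sets of floxed tumours (39 members and 2 medians), 1 tumour lay far from the other 4 by Dixon's criterion, where chance gives about 2.05. The sets share the same tumours, and the medians are made from the members, so they are not independent. The share of all genes by this criterion is not given here, so no excess can be read from the count. For Hk2, floxed tumour 5 was at -0.31 and the others at -0.79 to -0.72. For P4ha2 it was at -2.53 and the others at -3.42 to -3.19. Aldoa was 1.13 in floxed tumour 2, against 2.21 to 2.32, and Ldhb was 3.98 in the same tumour, against 2.59 to 2.86. The glycolytic members' median was 0.47 in floxed tumour 5 and 0.03 to 0.16 elsewhere in the group. Groups of 3 pools are too small for this criterion.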

How the results depend on the processing

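No member passed the adjusted threshold under any alternative run. The count of members with an unadjusted p under 0.05, 2 in the report, was 1 with the scanner's processed signals, with median centring, with slide as a random block and in the tumour channel after loess and Aquantile (added after seeing the data), 0 in the tumour channel alone, and 4 with trended robust variances, with the authors' table and with the mean of probes. Among all genes the share was 2.89% with median centring and 4.31% to 5.18% in the other settings just named. Leaving out 1 sample gave 1 to 5 members, while the share of all genes ran from 2.21% to 8.79%. The count of members whose groups do not overlap, 2 in the report, was 0 with median centring, and 2 to 6 with 1 sample left out. The 6 came without pool 3, where fewer pools make a lack of overlap easier to reach. With the authors' table, Pgam1 joined Gpi1 and Hif1a. The share of all genes without overlap under these alternatives is not given here, so no excess can be read from these counts. Within slide 2 and slide 3 alone the median difference was -0.28 and 0.62 for the glycolytic and -0.44 and 0.65 for the hypoxia-inducible members, and that of Gpi1 was 0.53 and 1.35. The sign of Pgam1 turned in the tumour channel, both alone (-0.13) and after loess and Aquantile (-0.062). With Aquantile on the ratio its difference stayed at 0.69. The sign of Car9 turned without floxed tumour 2 (0.027) or pool 3 (0.087), with a range of -0.42 to 0.087 with 1 sample left out. That of Slc2a3 turned without pool 2 (range -0.0094 to 0.15). The cause was not tested. Of 380 values under alternatives, 125 of the counts, medians and Gpi1 and 212 of the other members stayed within the spread or on their side of the threshold. No paired analysis was possible because the numbers of the floxed tumours only name them and pair no tumour with a pool; slide, which holds both groups, was fitted as a fixed block instead (Gpi1 0.87). The 8 arrays, with pools in 1 group only, limit the precision.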
